A study of Mus musculus with 12 samples.

Results

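The cytosolic ribosome is built from a large and a small subunit, and its proteins are encoded by the Rpl genes (large subunit), the Rps genes (small subunit) and the Rplp genes (the acidic stalk that recruits translation factors). These genes are kept in step with one another: their mRNAs share a pyrimidine-rich first stretch, the TOP motif, through which their translation is tied to nutrient and insulin signalling, and surplus protein that finds no partner is degraded. Their mRNAs are abundant in most cells, the heart included, and the comparisons here ask whether their levels differ in streptozotocin diabetes, in which insulin is lacking, and under inhibition of monoamine oxidase.

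The genes described here are the 83 whose name on the array is Rpl, Rps or Rplp with a number and at most a short suffix, which leaves out kinases such as Rps6ka2. No probe of theirs is described on the array as a pseudogene. They hold 180 of the 56605 probes and 83 of the 37074 gene names on the array. Of the 83, 82 passed the filter on low values, with 172 probes: 47 genes of the large subunit, 32 of the small subunit and the 3 stalk genes Rplp0, Rplp1 and Rplp2. Rpl10l, a retrogene copy of Rpl10, did not pass and has no test. On 0 of 12 arrays did its probe stand well above background.

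RNA was taken from heart muscle of male C57BL6/J mice aged 5 months, 3 mice in each of 4 groups and 1 array for each mouse. Control mice (C) had received neither streptozotocin nor pargyline, and mice not given pargyline had vehicle. Diabetic mice (D) had received streptozotocin, a toxin of the insulin-producing beta cells, at 50 mg/kg/day for 5 days and counted as diabetic from a blood glucose of 17 mM. Control mice with pargyline (C + P) and diabetic mice with pargyline (D + P) had been given pargyline, an inhibitor of monoamine oxidases, at 50 mg/kg/day for 12 weeks. Values are log2 signals of Agilent 1-colour arrays, quantile normalised, and each gene stands by its brightest tested probe. C and D lay on 1 slide with 1 scan and C + P and D + P on another, so that pargyline and slide cannot be told apart, and all control mice lay in 1 row of their slide and all diabetic mice in the other.

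The arrays differed in quality. Spots that repeat a probe had a median coefficient of variation of 3.78% to 10.3% on 9 arrays but 14.5% on C + P 1, 15.1% on D + P 1 and 23.0% on D 1. D 1 was the array farthest from the gene's own median for 26 of the 82 genes and C + P 1 for 15. All 15 cardiomyocyte markers were well above background on every array, with a mean level between 15.65 and 15.90 on the log2 scale, and 5 of the 6 adipocyte markers were well above background on none. The mean of the 11 immune markers lay between 8.93 and 9.68 in C + P and between 8.44 and 8.66 in D + P, without overlap, and C + P lay wholly above C (8.63 to 8.91) and D + P wholly below D (8.73 to 8.82). Of the 10 tested immune markers 7 were higher in C + P than in C, with a median difference of 0.14 but 2.09 for S100a8 and 1.96 for S100a9. The mean of the 5 atrial myocyte markers lay wholly higher in D (7.63 to 7.91) than in C (6.99 to 7.34). Only 2 of these 5 were well above background on all arrays. Of the 4 tested, 3 were higher in D, with differences from -0.25 (Myl4) to 1.67 (Nppa). The mean of the 9 endothelial markers lay wholly higher in D + P (10.90 to 11.29) than in D (10.69 to 10.86). The part of these in the ribosomal protein values was not tested. In whole tissue, fewer cells of a type and less RNA per cell cannot be told apart.

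The probes are 60 bases long, and the first 30 bases are shown for those on which the results below turn, since a probe's sequence decides what it can read. The places are on the mm9 build, as the scanner files give them.
Rpl5, chr5:108332845-108332904, plus strand: ccctgaagggagctgtggatggaggcttgt
Rpl12, chr2:32819082-32819298, plus strand: tctttggctagagaactttctgaaactatc
Rpl32, chr6:115755543-115755602, minus strand: ggctacgcagcgaagaaaatgaatagatgg
Rps28, chr17:33960001-33960060, minus strand: gttctggatatccgctacttagcccacgaa
Rplp2, chr7:148637182-148637241, plus strand: acatgggatttggcttgtttgattaaattc
Rpl3, chr15:79908295-79908445, minus strand: agaccatggaccagaagaaagcatttatgg
Rpl3l, chr17:24872413-24872681, plus strand: ggctgcattgcaggtaccaagaagcgagtg
Rps27, chr9:114891517-114891576, minus strand: cactgaaagcccctgattgaagatgagtgg
Rps27l, chr9:66795486-66797176, plus strand: aaagccaggctcacagaaggctgttcattt
Ranges longer than the probe (Rpl12, Rpl3, Rpl3l, Rps27l) span a junction between exons. Whether a probe lies in a coding part or a UTR was not analysed here.

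Ribosomal protein genes have many processed copies in the genome, and the probes share sequence with some of them. Of the 180 probes, 58, from 41 genes, held a word of 20 bases that also stood in a probe of another name, most of these unnamed transcripts or predicted genes, and none held a word of another member. Among the probes that stand for their gene, 28 shared such a word, over as many as 54 consecutive bases in Rpl22l1, 49 in Rpl30 and 48 in Rpl21. How much of a signal came from such copies was not tested. The probes of the paralog pairs differed more: over 60 bases, the best ungapped alignment matched 22 between Rpl3 and Rpl3l, 22 between Rpl22 and Rpl22l1, 22 between Rps27 and Rps27l, and 21 between Rpl39 and Rpl39l. Both Rps27 probes are placed on chromosome 9 (RefSeq has the gene on chromosome 3), and 3 probes of Rps29 are placed on chromosome 2, whereas RefSeq has that gene on chromosome 12. The same holds for 1 probe of Rpl13 (chromosome 4 against 8) and 1 of Rpl36 (X against 17), 1 probe of Rps4x has no place, and the brightest Rps2 probe starts at 42864841 on chromosome 17, far from its other 2 at 24857583 and 24858999. Which of these places gave the signal was not tested.

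The TOP motif is a run of C and T at the start of the transcript. In RefSeq windows of 30 bases centred on the annotated start (GRCm38.p6), 28 of 74 windows of 62 member genes held an unbroken run of at least 8 C or T letters on the transcript's strand, 37.8% against 12.0% of 32851 windows of all genes. On the other strand, read as A or G, the shares were 4.1% and 13.2%. The windows below show such runs in capitals (the longest run of each) in a large subunit, a stalk and a small subunit gene, and then Rpl5, Rpl12 and Rps28, whose longest runs were shorter than 8.
Rpl7a, chr2:26910792-26910821, plus strand: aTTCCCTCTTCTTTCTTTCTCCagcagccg
Rplp2, chr7:141447636-141447665, plus strand: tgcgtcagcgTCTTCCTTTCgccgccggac
Rps10, chr17:27635230-27635259, minus strand: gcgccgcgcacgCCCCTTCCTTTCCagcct
Rpl5, chr5:107900513-107900542, plus strand: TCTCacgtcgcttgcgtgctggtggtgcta
Rpl12, chr2:32961697-32961726, plus strand: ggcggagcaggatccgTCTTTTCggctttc
Rps28, chr17:33824548-33824577, minus strand: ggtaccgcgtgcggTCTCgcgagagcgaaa
The limit of 8 was set here, and a shorter run does not show that a gene lacks the motif. A run in this window is a description of the letters around an annotated start, which may differ from the start used in the heart.

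Ribosomal protein genes gave bright and steady signals. With each gene at its brightest tested probe, 77 of the 82 lay among the brightest 10% of 20893 genes by mean signal, above 12.03 on the log2 scale; the brightness of a probe depends on its sequence as well as on the RNA, so this is no order of RNA amounts. The exceptions were Rpl39l at 3.83, Rpl37 at 5.58, Rpl7l1 at 5.75, Rps4l at 11.54 and Rpl22l1 at 11.83. The Rpl39l probe was well above background on 0 arrays, Rpl7l1 on 7 and Rpl37 on 9, and the other 79 genes were well above it on all 12. The SD within groups had a median of 0.139 over the 82 genes, 0.207 over the brightest 10% of genes and 0.310 over all genes. It was 0.110 for the 29 genes read by a probe printed in 10 spots and 0.201 for the 53 read by a probe in 1 spot. Rpl27a, a large subunit protein, varied least, with 13.72, 13.71 and 13.70 in C, 13.69, 13.65 and 13.63 in C + P, 13.76, 13.77 and 13.70 in D and 13.78, 13.75 and 13.76 in D + P.

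**Figure D1:**
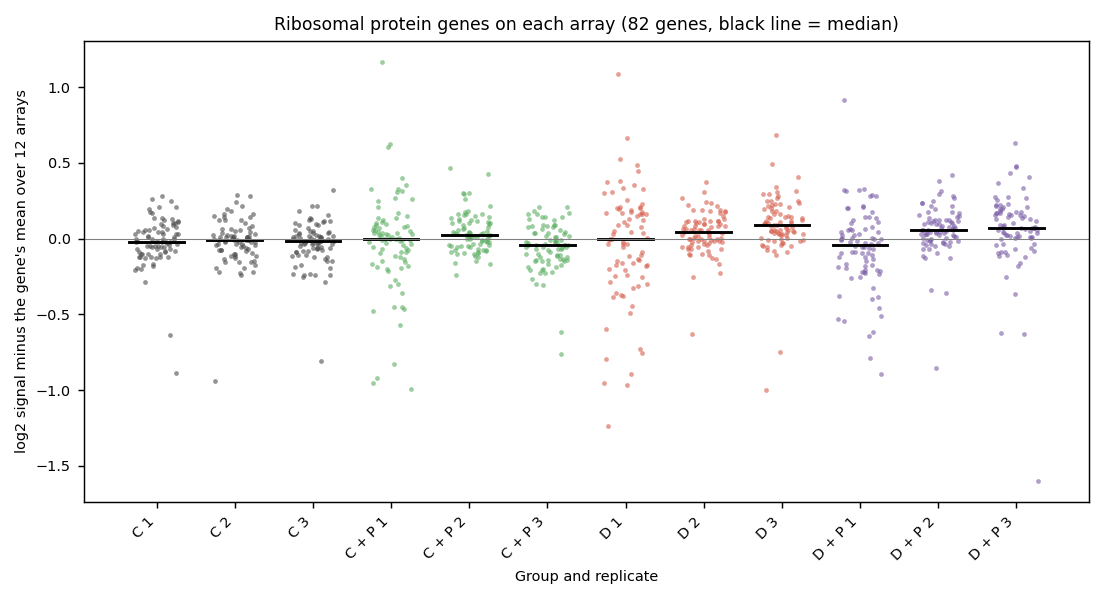
Each point is 1 of the 82 ribosomal protein genes on 1 array, as its quantile-normalised log2 signal minus the gene's mean over 12 arrays; the black line is the array's median. The medians lie between -0.04 and 0.09 on every array, and the points spread most on D 1, C + P 1 and D + P 1.

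Diabetes without pargyline moved no ribosomal protein gene past the test. In D against C, 0 of 82 genes passed an adjusted p of 0.05 (limma, Benjamini-Hochberg over 30859 probes), where 0.00648% of all probes passed. Unadjusted, 1 gene (1.22%) had a p under 0.05, against 10.4% of all genes. The differences ran from -0.47 to 0.53 with a median of 0.06, and 51 of 82 were above 0; the median was 0.01 over all genes and -0.03 over the brightest 10%. The 95% interval lay within 0.5 of 0 on the log2 scale for 46 genes and within 1 for 75, and its median half-width was 0.34, from 3 mice in a group. Single arrays moved the balance of signs: without D 1, 65 of 82 genes were above 0, with a median of 0.07 and 0 genes of unadjusted p under 0.05 (11.6% of all genes), and without D 3, 43 were, with a median of 0.02 and 6 such genes (7.32%, against 9.52% of all genes). Neither left a gene that passed (0). For 29 of 82 genes the sign of the difference turned with 1 of the 6 arrays left out, and for 32 in D + P against C + P.

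The balance of signs depended on the scaling too. With each array set to its 75th percentile in place of quantile normalisation, 74 of 82 genes were higher in D than in C, with a median of 0.26 (90.2%, against 55.9% of all genes), 0 passed and 12 had an unadjusted p under 0.05 (14.6%, against 11.2% of all genes). The median of the brightest 10% of genes moved with them, from -0.03 to 0.15, and that of all genes from 0.01 to 0.05. On this scale the median deviation of the ribosomal protein genes from their own means was 0.36 on D 3, and 0.05 and 0.07 on D 1 and D 2.

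In D + P against C + P, 0 of 82 genes passed (0.0454% of all probes did), 0 had an unadjusted p under 0.05 (7.50% of all genes did), and the differences ran from -0.59 to 0.46 with a median of 0.05 and 47 above 0. By 75th percentile scaling, where D against C had 74, 38 were above 0, with a median of -0.02 and 0 genes of unadjusted p under 0.05 (7.72% of all genes). Averaging the diabetes difference over both slides narrowed the intervals to a median half-width of 0.24, and the interval lay within 0.5 of 0 for 61 genes and within 1 for 81. Here too 0 genes passed (0.107% of all probes did), 3 had an unadjusted p under 0.05 (3.66% against 11.3% of all genes), the median was 0.05 and 52 were above 0. Without the 3 arrays of highest spot spread (C + P 1, D 1 and D + P 1, a choice made after seeing the data), 60 were above 0, with a median of 0.06, 5 had an unadjusted p under 0.05 (6.1%, against 20% of all genes) and 0 passed. By 75th percentile scaling 65 were above 0 in the averaged difference, with a median of 0.11 (79.3%, against 52.8% of all genes and 55.7% of the brightest 10%), 9 had an unadjusted p under 0.05 (11%, against 11.4% of all genes) and 0 passed.

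**Figure D2:**
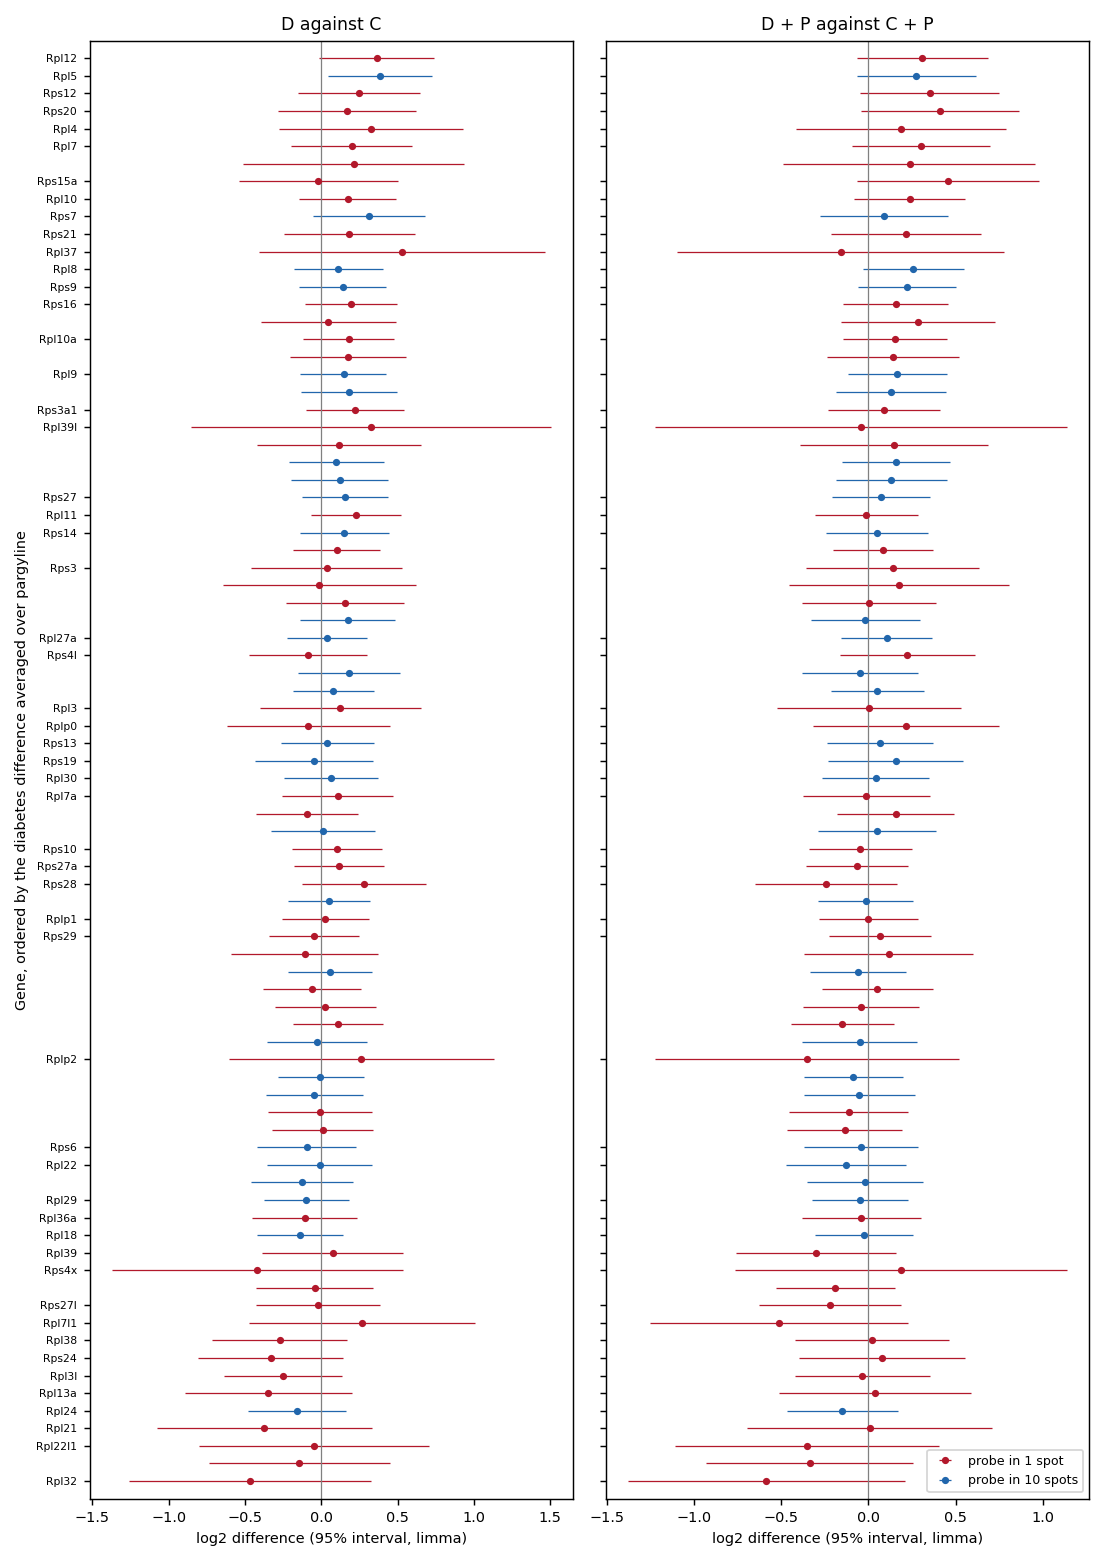
Log2 differences of the 82 genes with their 95% intervals from limma (3 arrays per group), D against C on the left and D + P against C + P on the right, in red where the probe has 1 spot and in blue where it has 10; the genes described in the text are labelled. Every interval includes 0 except that of Rpl5 in D against C (0.05 to 0.73).

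The 3 genes with an unadjusted p under 0.05 in the averaged difference were all higher in diabetes. Rpl5, which carries the 5S ribosomal RNA into the large subunit and, when free, binds the p53 regulator Mdm2, read 12.76, 12.62 and 12.62 in C, 13.24, 12.93 and 13 in D, 12.80, 12.74 and 12.64 in C + P and 12.77, 13.14 and 13.08 in D + P. All D arrays lay above all C arrays, while D + P 1 fell among the C + P arrays. The averaged difference was 0.33 ± 0.11 (SE, adjusted p = 0.311, limma), 0.39 ± 0.15 without pargyline and 0.27 ± 0.15 with it. The second probe of Rpl5, in 1 spot, gave 0.06 and -0.03 for these pairs.

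Rpl12, which sits at the base of the stalk, read 13.89, 13.95 and 13.91 in C, 14.62, 14.07 and 14.14 in D, 13.822, 14.005 and 13.995 in C + P and 14.39, 14.10 and 14.27 in D + P. The diabetic arrays lay above the control arrays on both slides. The averaged difference was 0.34 ± 0.12 (adjusted p = 0.349, limma), and without D 1 the difference of D from C fell from 0.36 to 0.19. A second bright probe gave 0.38 and 0.32 for D against C and D + P against C + P, close to the 0.36 and 0.31 of the first, whereas a dim probe of an Ensembl transcript gave 0.14 and -0.54.

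Rps12, a protein of the small subunit's beak, read 14.87, 14.69 and 14.57 in C, 15.12, 14.85 and 14.91 in D, 14.20, 14.82 and 14.56 in C + P and 14.77, 14.92 and 14.94 in D + P. The groups overlapped on both slides. The averaged difference was 0.30 ± 0.13 (adjusted p = 0.413, limma), and 0.22 without C + P 1.

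The largest difference in the other direction was that of Rpl32, a large subunit protein. It read 15.03, 15.21 and 15.13 in C, 13.68, 15.11 and 15.18 in D, 15.54, 15.21 and 14.95 in C + P and 14.27, 14.85 and 14.83 in D + P. D 1 alone was far below the others in D: the difference of D from C was -0.47 ± 0.36 with it and 0.02 without it. With pargyline all diabetic arrays lay below all control arrays, with a difference of -0.59 ± 0.36 (adjusted p = 0.75, limma). This difference was -0.40 without D + P 1, -0.43 without C + P 1 and -0.245 without the 3 arrays of highest spot spread. D 1 was also the lowest array of D for Rps4x, Rpl21 and Rpl13a, whose differences from C were -0.42, -0.37 and -0.35 with it and -0.036, -0.007 and -0.034 without it.

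Counted by overlap alone, 11 genes were higher on every D array than on any C array (Rpl5, Rpl12, Rpl10a, Rps3a1, Rps7, Rps9, Rps14, Rps16, Rps20, Rps21 and Rps28) and 2 were lower (Rpl18 and Rpl3l). Over all genes 12.7% were wholly higher and 10.1% wholly lower. With pargyline 10 were wholly higher in diabetes, among them Rplp0, Rpl8, Rpl9, Rpl10 and Rpl27a, against 7.55% of all genes, and 3 wholly lower, among them Rpl24 and Rpl32, against 6.56%. Rpl10a, Rpl12 and Rps9 were wholly higher on both slides (3.66% of 82 genes, against 1.33% of all genes), and 0 were wholly lower on both (1.32% of all genes). Rpl10a, near the exit site for tRNA, was higher by 0.18 ± 0.13 and 0.15 ± 0.13, and Rps9, a core protein of small subunit assembly, by 0.14 ± 0.13 and 0.22 ± 0.13; without D 1 their differences of D from C were 0.11 and 0.07. Rps3a1, a small subunit protein, was higher in D by 0.22, 0.22, 0.30 and 0.30 on its 4 probes. Of these, 2 overlap in place and share words with the same probe of another name. In D + P against C + P the brightest Rps3a1 probe gave 0.09, and 0.01 without D + P 2.

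Pargyline, compared across slides, moved no gene either. In C + P against C, 0 of 82 genes passed (0.0324% of all probes did) and 0 had an unadjusted p under 0.05 (4.87% of all genes did), with a median of 0.00, 42 above 0 and differences from -0.33 to 0.64. In D + P against D, 0 passed (0% of all probes did), 2 had an unadjusted p under 0.05 (2.44% against 13% of all genes), the median was -0.01 and 35 were above 0. Without D + P 1, 50 were above 0 (61%, against 49.9% of all genes), with a median of 0.04. The test of whether the diabetes difference depended on pargyline (interaction) passed for 0 of 82 genes (0.00648% of all probes). An unadjusted p under 0.05 was found for 0 genes (6.72% of all genes had one). The median was -0.02, 38 were above 0 and the interval lay within 1 of 0 for 65 genes. Leaving out D + P 1 put 48 above 0 (58.5%, against 50.2% of all genes), with a median of 0.06. By 75th percentile scaling the medians of these 3 comparisons were 0.11, -0.17 and -0.27, with 63, 14 and 9 genes above 0, and those of the brightest 10% of genes 0.08, -0.15 and -0.24.

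Wholly higher in C + P than in C were 8 genes, against 7.71% of all genes, and wholly lower 6, against 8.98%; for D + P against D these were 3, against 7.33%, and 5, against 9.86%. Rpl11, which joins Rpl5 and the 5S RNA, was among the first 8, with 14.88, 14.86 and 14.95 in C and 15.15, 15.18 and 15.12 in C + P. The gap was 0.25 ± 0.13 (adjusted p = 1, limma), and in D the values were 15.29, 14.94 and 15.14. Rplp1 was in the lower sets of both, as the next paragraph gives.

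The stalk consists of Rplp0, which anchors it to the large subunit, and pairs of the acidic proteins Rplp1 and Rplp2. Rplp1 read 16.24, 16.31 and 16.25 in C, 16.24, 16.29 and 16.36 in D, 16.10, 16.12 and 16.09 in C + P and 15.97, 16.23 and 16.10 in D + P. Both pargyline groups lay wholly below their partners, by 0.17 ± 0.13 and 0.19 ± 0.13, but 2 other Rplp1 probes were higher with pargyline in C, by 0.08 and 0.10, and in D, by 0.03 and 0.30. Rplp2 read 16.27, 16.09 and 16.02 in C, 16.47, 16.19 and 16.51 in D, 15.99, 15.92 and 15.97 in C + P and 16.35, 16.06 and 14.43 in D + P. D + P 3 stood apart: the difference of D + P from D was -0.78 ± 0.39 (adjusted p = 0.414, limma) with it and -0.19 without it, and that of D + P from C + P turned from -0.35 to 0.24. Rplp0 read 15.10, 15.05 and 15.09 in C, 14.33, 15.36 and 15.28 in D, 15.20, 15.14 and 14.98 in C + P and 15.44, 15.24 and 15.28 in D + P, with D 1 again the lowest.

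**Figure D3:**
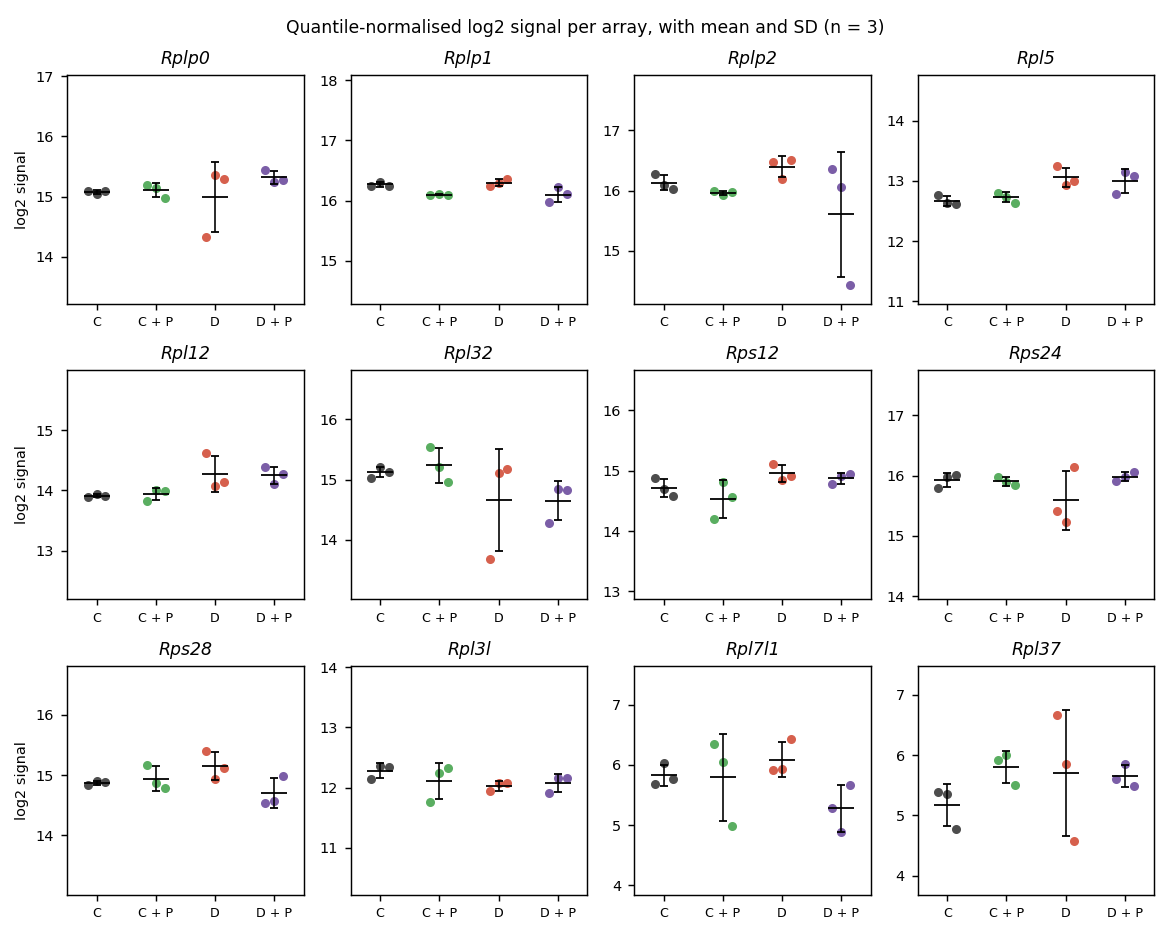
Log2 signal of 12 ribosomal protein genes on each array (points) with the group's mean and SD (n = 3, black); every panel has the same height in log2 units, centred on the gene's mean. The single low points are D 1 for Rplp0 and Rpl32 and D + P 3 for Rplp2.

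Among the other genes of the large subunit, Rpl3 and Rpl4, which line the catalytic centre and the exit tunnel, differed by 0.12 ± 0.24 and 0.32 ± 0.27 in D against C. For Rpl4, C 1 read 13.90 against 14.79 and 14.83 on the other C arrays, and the difference was 0.02 without it. Rpl7 gave 0.20 and 0.30 for the diabetes pairs on its brightest probe, the latter 0.145 without D + P 3, and -0.27 and -0.24 on its second. In D against C, Rpl10, a late-joining protein next to the peptidyl transferase site, gave 0.17 ± 0.14 (0.08 without D 1). Rpl36a gave -0.11 ± 0.16, Rpl39, at the tunnel exit, 0.07 ± 0.21, and Rpl22, an RNA-binding protein, -0.01 ± 0.16. In D + P against C + P the differences of Rpl10, Rpl36a, Rpl39 and Rpl22 were 0.24, -0.04, -0.30 and -0.13, with the same SE. Without D + P 3 that of Rpl39 was -0.11 and that of Rpl22 -0.03. Rpl39 differed by -0.38 between D + P and D (adjusted p = 0.442, limma), where D + P 3 read 13.62 against 14.23 and 14.13 on the other D + P arrays. Rpl38 was higher in D + P than in D by 0.40 ± 0.20, with 14.45, 15.08 and 15.31 in D and 15.41, 15.32 and 15.31 in D + P; without D 1 the difference was 0.16.

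In the small subunit, Rps6, the main substrate of the S6 kinases, differed by -0.10 ± 0.15 in D against C, and by -0.04 ± 0.15 between the diabetic and control mice on pargyline. Rps3, at the mRNA entry, gave 0.03 ± 0.22 and 0.14 ± 0.22, Rps19, mutated in Diamond-Blackfan anaemia, -0.05 ± 0.18 and 0.16 ± 0.18, and Rps27a, made as a fusion with ubiquitin, 0.12 ± 0.13 and -0.06 ± 0.13. Rps24 read 15.79, 15.97 and 16.01 in C and 15.41, 15.22 and 16.14 in D, a difference of -0.33 ± 0.22 that overlapped the controls; it was -0.61 without D 3 and -0.15 without D 2. With pargyline it was 0.08 ± 0.22. Among mice on pargyline, Rps20 was higher in diabetes by 0.41 ± 0.20 on its brightest probe and lower, by 0.10, on a second bright one. On the brightest probe D + P 3 read 16.08 against 15.27 and 15.60 on the other D + P arrays, and the difference was 0.20 without it.

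Rps28, next to the mRNA exit, had the smallest unadjusted p of all 82 genes in D + P against D. It read 15.40, 14.93 and 15.12 in D, 14.53, 14.58 and 14.98 in D + P, 14.83, 14.91 and 14.88 in C and 15.17, 14.86 and 14.78 in C + P. The difference was -0.45 ± 0.18 (adjusted p = 0.328, limma) on this 1-spot probe, but -0.04 and 0.00 on 2 probes printed in 10 spots. These 2 probes lie at nearly the same place. Both share words of 20 bases with a probe of an Ensembl transcript, and the 1-spot probe does not. Which of the probes reads Rps28 best was not tested. The Rps15a probes also split by spots: its 1-spot probe gave 0.46 ± 0.24 in D + P against C + P and its 10-spot probes -0.05 and -0.06. C + P 1, at 13.19, was the low array there, against 14.09 and 14.01, and the difference was 0.17 without it.

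Such disagreement was common. Of the 57 genes with more than 1 tested probe, 30 had probes of both signs without pargyline (D against C) and 32 with it, and in 0 genes did both signs reach an unadjusted p under 0.05. Over the bright probes the median size of the difference in D against C was 0.15 for 88 probes in 1 spot and 0.08 for 65 probes in 10 spots, with median SE of 0.18 and 0.14. Counting every probe, 0 of 172 passed in any of the 6 comparisons. An unadjusted p under 0.05 was reached by 6 of them in D against C (3.49%, against 10.8% of all probes), 2 in D + P against C + P (1.16% against 7.46%), 15 in the averaged diabetes difference (8.72% against 11.4%; 12 higher and 3 lower), 3 in C + P against C (1.74% against 4.43%), 6 in D + P against D (3.49% against 13.3%) and 2 in the interaction (1.16% against 7.03%).

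**Figure D4:**
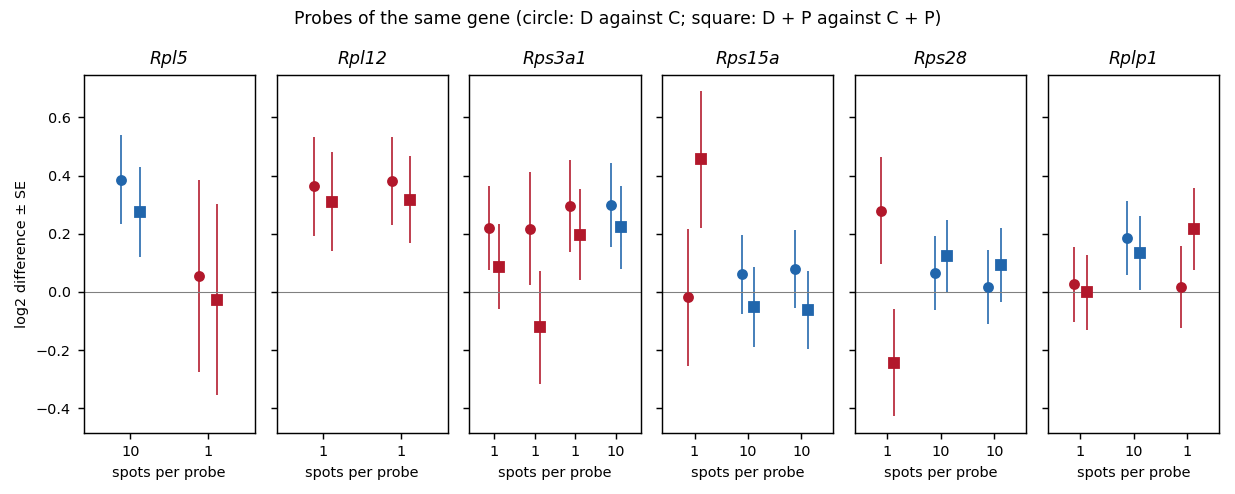
Log2 difference with its SE from limma for each bright probe of 6 genes (circles D against C, squares D + P against C + P; red 1 spot, blue 10 spots). The probes of Rpl12 give 0.36 and 0.38 in D against C, whereas those of Rps15a and Rps28 differ in sign between 1-spot and 10-spot probes.

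The paralogs have probes of their own, with the limits given above for Rps27 and Rpl22l1. Rpl3l, the striated-muscle form of Rpl3, read 12.14, 12.36 and 12.34 in C, 11.94, 12.07 and 12.07 in D, 11.77, 12.24 and 12.33 in C + P and 11.91, 12.16 and 12.16 in D + P. It was wholly lower in D than in C by 0.25, with an SE of 0.18 (adjusted p = 0.600, limma), and the groups overlapped with pargyline, where the difference was -0.04 ± 0.18. Rpl22l1, which can take the place of Rpl22, gave -0.05 ± 0.34 and -0.35 ± 0.34 for the diabetes pairs; its lowest arrays were D + P 1 at 10.93 and D 1 at 11.10, and the differences were 0.30 without D 1 and 0.02 without D + P 1. Rps27 and Rps27l, the latter known as a p53 target, gave 0.15 ± 0.13 and -0.02 ± 0.18 in D against C, and 0.07 and -0.22 in D + P against C + P. Without D + P 1 the last, of Rps27l, was -0.04. Rps4x, the X-linked form, gave -0.42 ± 0.43 in D against C (-0.04 without D 1) and 0.19 ± 0.43 in D + P against C + P (-0.24 without C + P 1). Rps4l, which RefSeq lists as a transcribed pseudogene although the array's description does not, gave -0.09 ± 0.18 and, wholly higher in D + P, 0.22 ± 0.18.

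The dim members gave wide intervals. Rpl7l1, a relative of Rpl7 tied to ribosome assembly, read 5.91, 5.93 and 6.43 in D and 5.28, 4.89 and 5.66 in D + P, wholly lower by 0.81 with an SE of 0.34 (adjusted p = 0.336, limma), and it read 5.69, 6.02 and 5.76 in C. Rpl37 read 5.38, 5.36 and 4.78 in C and 5.91, 6.01 and 5.51 in C + P, a difference of 0.64 ± 0.42. It also had the largest rise of the members in D against C, 0.53 ± 0.42, which was 0.05 without D 1. For Rpl39l, whose best-known site of expression is the testis, values ran between 2.89 and 5.00 and are not well above background.

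Over the 12 arrays, by quantile normalisation, the genes followed their common profile to different degrees. The Pearson correlation of a gene with the median deviation of the other members was highest for Rps27 (0.88), Rps13 (0.86) and Rps3a1 (0.76) and lowest for Rpl29 (-0.47), as a description over 12 arrays that share the noise of D 1. The first principal component of 81 genes held 36.8% of the variance, and its largest scores were those of D 1 at 3.00, D + P 1 at 1.49 and C + P 1 at 1.43.

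The lists around the ribosome held no gene that passed either. No gene passed in any comparison among 39 initiation factors, 14 elongation and termination factors, 19 other TOP transcripts, 56 genes of ribosome biogenesis, 15 of RNA polymerase I, 10 snoRNA host RNAs and 19 regulators of ribosomal protein output (limma). Of the 166 different genes in these lists and a short one of ribosomal proteins with other names, 9 had an unadjusted p under 0.05 in D against C (5.42%, against 10.4% of all genes), 12 in D + P against C + P (7.23% against 7.50%), 13 in the averaged diabetes difference (7.83% against 11.3%), 3 in C + P against C (1.81% against 4.87%), 10 in D + P against D (6.02% against 13%) and 8 in the interaction (4.82% against 6.72%). In the averaged difference the medians of these lists lay between -0.07 for the initiation factors and 0.09 for the snoRNA hosts. The differences ran from -0.37 (Eif4g1, the initiation scaffold) to 0.52 (Eif4g2, its relative) among initiation factors, from -0.32 (Etf1, a release factor) to 0.35 (Eif5a2) among elongation and termination factors, and from -0.23 (Eef1a1) to 0.24 (Tpt1) among other TOP transcripts. They ran from -0.47 (Rrp12, a subunit export factor) to 0.45 (Imp4) in ribosome biogenesis, from -1.33 (Taf1a, of the polymerase I selectivity factor) to 0.20 (Polr1d) in RNA polymerase I, from -0.75 (Snhg11) to 0.48 (Snhg8) among snoRNA hosts, and from -0.58 (Tia1, an RNA-binding repressor of translation) to 0.50 (Myc, a driver of ribosomal transcription) among the regulators.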

How the data were processed

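RNA of 12 mouse hearts was labelled with Cy3 and hybridised to 1-colour Agilent arrays. The authors deposited scanner intensities (Feature Extraction 12.0.0.7 per the file headers; the methods name another version), background-subtracted, and a quantile-normalised table whose log2 values were used only as an alternative. Here the intensities were put on the log2 scale, quantile normalised, outlier spots were left out (1 ribosomal protein value, Rpl35 on D 1) and repeated spots were averaged. In each group, a tested probe had to be positive and significant on 50% of arrays or more (30859 of 56605 probes passed); each gene stands by its brightest tested probe. All comparisons came from 1 limma fit (3.58.1, R 4.3.3) with a mean for each of 4 groups over 12 arrays, and p-values were adjusted by Benjamini-Hochberg over all tested probes at 0.05. Intervals are at 95%. The fit was tested on simulated data. Arrays give no counts, and 3 mice in a group limit the precision. Replicates are separate mice; groups came from the sample labels.

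The members, gene lists and tests were chosen with earlier results of these data known. Named genes were the 3 largest differences each way in each comparison, a list by role in the ribosome, the brightest and dimmest members, members whose probes disagreed in sign and, of each pathway list, the extremes. Of the members whose probes disagreed, a few are named and the rest counted. Values of some genes are counted but not reported here by name. Alternatives covered scaling, background correction, filters, weights, blocks, the choice of probe, the methods' t-test and leaving out each array. Probe sequences came from the scanner files (mm9), and start-site windows and gene places from RefSeq (GRCm38.p6); 62 of 83 symbols had a window. Python 3.11.15, pandas 2.3.3 and matplotlib 3.10.9 were used.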

Additional observations from a re-analysis of the deposited data

How the results depend on the processing

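No ribosomal protein gene passed in any of the 6 comparisons by quantile normalisation, 75th percentile scaling, normexp correction, the authors' table, other filters, gene-by-gene array weights, the replicate block, the mean of probes, the 10-spot probe or with any array left out (0 to 0 calls), nor in the 4 comparisons of 2 groups fitted on those groups alone. The exception was array weights by REML, chosen after seeing the data, whose estimate stopped before it converged and gave C + P 2 a weight of 9.47 and D 1 one of 0.202: calls were then 1 in D against C (Rps24, -0.62), 1 in the averaged diabetes difference (Rpl5, 0.31, adjusted p = 0.032) and 2 in C + P against C (Rpl37, 0.80, and Rpl11, 0.28), with 2936, 2256 and 2259 calls over all 30859 probes and 7, 9 and 11 over the 172 member probes (and 1 in D + P against C + P). The methods' t-test gave 0 probes past Benjamini-Hochberg over all genes for diabetes alone, 1 for diabetes with pargyline, 1 for pargyline in controls and 1 for pargyline in diabetes; past Bonferroni the counts were the same. Of the member genes, 6, 9, 6 and 4 had an unadjusted p under 0.05 by that test (7.32%, 11%, 7.32% and 4.88%, against 11.6%, 6.75%, 8.51% and 8.68% of all genes).

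Median differences moved beyond the spread between arrays under 75th percentile scaling, to 0.255 for D against C, -0.024 for diabetes with pargyline, 0.112 averaged, 0.109 for C + P against C, -0.166 for D + P against D and -0.266 for the interaction; the cause was not tested. That of D + P against D was 0.03 with the mean of all probes. With each array left out, the medians ranged from 0.02 to 0.07, 0.01 to 0.08, 0.02 to 0.06, -0.02 to 0.02, -0.037 to 0.041 and -0.029 to 0.056 in the same order, the last upper values without D + P 1.

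Of 1483 values for 59 results of named genes under other settings, 56, for 29 results, had the other sign. Of these, 37 lay within 1 SE of a value itself under 1 SE from 0. The 10 that turned a difference of over 1 SE were these: Rpl10 averaged to -0.006 by normexp; Rpl21 in D against C to 0.007 and Rpl7 averaged to -0.19 with the mean of probes; Rpl32 in D against C to 0.021 without D 1 (range -0.732 to 0.021 with single arrays left out) and to 0.021 without the 3 arrays of highest spot spread, where Rps25 averaged came to 0.066; Rpl4 in C + P against C to -0.001 without C 1 (range -0.001 to 0.464); and Rps15a to -0.051 (diabetes with pargyline) and -0.111 (interaction) by its 10-spot probe, and to 0.014 in C + P against C by REML weights. Another 9 turned a smaller difference by over 1 SE: Rplp2 without D + P 3, to 0.24 with pargyline and 0.251 averaged; Rpl22l1 averaged, to 0.211 without the 3 arrays; Rps26 in C + P against C, to 0.113 without C + P 1 and without the 3 arrays, 0.042 by array weights and 0.116 by REML weights; and, by REML weights, Rps4x to 0.168 in C + P against C and -0.053 in the interaction.

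The replicate block changed no call of a member (0 in every comparison), and its medians stayed within the spread between arrays. The values gave no sign that the numbers pair the mice, though a weak pairing could go unseen. Over 18 pairs of arrays with the same number the correlation of deviations ran from -0.20 to 0.20, with 4 over 0.1. Over 36 pairs with different numbers it ran from -0.19 to 0.21, with 8 over 0.1. Slide could not be fitted as a random block, since each group lies on 1 slide; with slide and diabetes as the only terms, 0 members passed. With 3 arrays in a group the median half-width of the intervals was 0.34, and the dim Rpl39l, Rpl37 and Rpl7l1 are limited by background.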
